A study of Mus musculus with 18 samples.

Results

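RNA sequencing was compared between tumours of livers lacking Ftcd and nontumour liver of wild-type littermates, both from mice given the carcinogen diethylnitrosamine (DEN). The comparison held 9 of the 18 libraries in the series. The tumour group was 3 libraries labelled as tumour of a liver-specific Ftcd knockout (LKO). The other group was 6 libraries labelled wild type (WT), all nontumour liver, called DEN WT here. Both groups had received DEN at 20 mg/kg by intraperitoneal injection on postnatal day 14, and tissue was collected 12 months later. A set of 3 libraries from nontumour LKO liver of the same DEN schedule stands beside them where it helps. No tumour from a WT liver is in the comparison, so genotype and tumour tissue cannot be told apart in it. The Cre line behind the knockout is not given in the sources used here. The labels also leave unsaid whether replicates came from different mice, so p-values may reflect technical spread between samples. Genes reaching 1 TPM in 3 or more of the 9 libraries were compared, which left 12485 of the 58126 genes in the table. TPM is a length-corrected share of each library's transcripts, so it keeps no sequencing depth, and how precise any single value is cannot be stated.

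Ftcd encodes the liver enzyme that takes the formimino group released in histidine breakdown onto tetrahydrofolate, and so links that pathway to one-carbon metabolism. DEN is activated by cytochrome P450 enzymes of hepatocytes to a form that alkylates DNA, and mice injected as infants develop liver tumours as adults. Male and female mouse livers also differ in many genes of steroid, drug and lipid metabolism, because growth hormone is secreted in a different rhythm in each sex.

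Ftcd itself was at 0.10, 0.15 and 1.75 TPM in tumours 1, 2 and 3. In DEN WT 1 to 6 it was at 2.36, 2.5, 61.7, 66.2, 106 and 77.2 TPM. DEN WT 1 and 2 thus lay inside the range of 0.1 to 3.16 TPM found in the 9 LKO libraries of the series, against their label. Every direction below compares libraries as labelled, with both of these kept in the DEN WT group. Means were 0.67 ± 0.94 TPM (SD, n = 3) and 52.7 ± 41.9 TPM (SD, n = 6). The difference on log2(TPM + 1) was -4.17 (2-sided exact permutation p = 0.0238, the smallest that 84 splits allow). Over all genes, Ftcd did not pass in limma (adjusted p = 0.109). Which part of the gene the knockout removes is not given in the sources used here, so reads from a part that remains cannot be set aside.

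The groups also differed in sex, and single libraries differed in composition, with ranges that overlapped between the groups. Xist, the RNA of the inactive X chromosome, was at 35.4, 0 and 0 TPM in tumours 1 to 3 and at 4.97 to 48.8 (median 6.92) TPM in DEN WT, and the limma log2 fold change was -1.74. The summed TPM of 4 Y-linked genes was 0.1, 13.3 and 4.95 in the tumours and at most 0.13 in DEN WT. Tumour 1 and all 6 DEN WT libraries were therefore XX, and tumours 2 and 3 were XY. Mitochondrially encoded genes took 31.4%, 16.4% and 10.5% of TPM in the tumours, 38.8% in DEN WT 1 and 4.39% to 9.82% in the other DEN WT libraries. Tumour 1 and DEN WT 1 scored almost alike on the first principal component, at -106.71 and -105.91. Their Pearson correlation across genes was 0.926, while tumour 1 correlated at 0.829 with tumour 2 and 0.764 with tumour 3. Hepatocyte identity genes summed to 55058, 156383 and 123548 TPM in the tumours and to 70781 to 206257 TPM in DEN WT. Alb, serum albumin, was at 6758, 39153 and 16503 TPM in the tumours, so all 3 held abundant hepatocyte transcripts. The plot of the 9 libraries by principal component shows these positions.

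**Figure D1:**
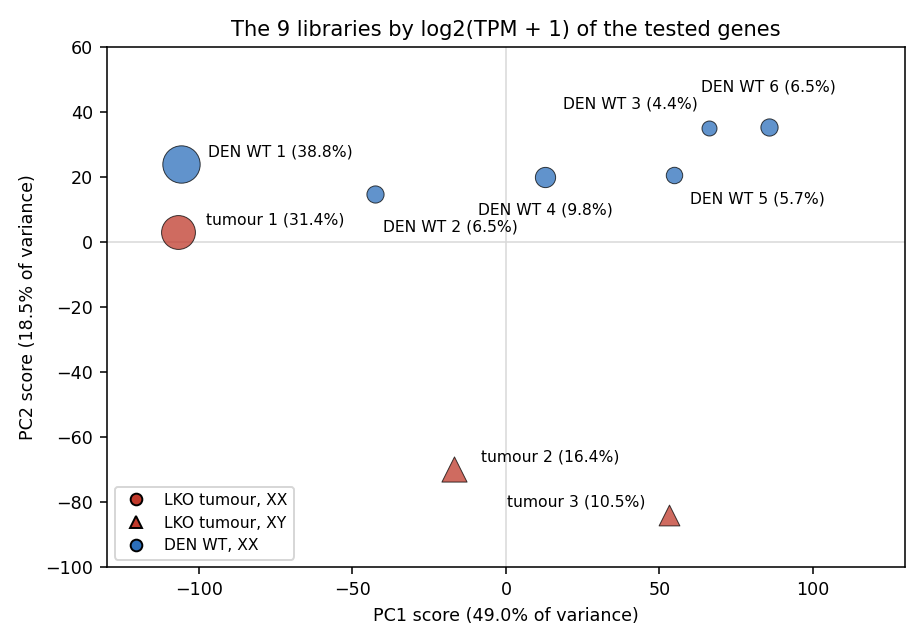
Scores of the 9 libraries on the first 2 principal components of log2(TPM + 1), which held 49.0% (x axis) and 18.5% (y axis) of the variance; red marks LKO tumour, blue DEN WT, circles XX, triangles XY, and marker area and the figure in brackets the percent of TPM from mitochondrially encoded genes. Tumour 1 and DEN WT 1 lie together at the left, and the XY tumours 2 and 3 lie apart at -69.79 and -83.75 on the second component.

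In all, 80 genes passed limma at an adjusted p under 0.05 (0.641% of the genes tested). Of these, 43 were higher in tumour (0.344%) and 37 lower (0.296%), while 1336 genes had an unadjusted p under 0.05. Over all genes tested the median log2 fold change was 0.02, with 6426 estimates above 0 and 6059 below. Counts given for the gene lists below are to be read beside these values and shares. Tumour and DEN WT values were fully separated for 42 of the 43 higher and 36 of the 37 lower genes. The choice of genes that passed on these same values largely fixes this separation. Over all genes, the 3 tumours lay above all 6 DEN WT libraries for 252 genes (2.02%) and below them for 149 (1.19%). Regular gene symbols made up 20 of the higher and 33 of the lower genes. The remaining higher genes were 11 with provisional names and 12 loci assembled by the authors without a gene name. All 80 genes kept their direction in every other fit that was tried, including both rescalings of the TPM values. For the 42 and 36 genes without overlap, leaving out libraries cannot turn the sign. The choice of genes thus largely fixes this result too, and it is no measure of stability. Rescaling moved the share that was higher from 53.8% to 43.4% of 350 genes under median-ratio scaling and to 40.9% of 252 under quantile normalization.

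How many genes passed depended on single libraries and on the fit. Without tumour 1 it was 419 (319 higher and 100 lower), without tumour 2 23 and without tumour 3 29. It was 213 (73 higher and 140 lower) without DEN WT 1, 42 without DEN WT 3, 43 without DEN WT 5, 44 without DEN WT 6 and 438 (121 higher and 317 lower) without both low-Ftcd libraries. The 9 libraries fitted alone gave 8 genes, and a term for XX or XY left 2, namely the unnamed transcripts Gm5420 and MSTRG.26490. Tumour 1 is the only library of this comparison in which tumour and XY do not coincide. Sex varied only within the LKO tumour and LKO nontumour groups given DEN, so the term rests on these. Their XX libraries, tumour 1 and nontumour 1, also had the highest mitochondrial shares of TPM, at 31.4% and 36.9%. The others were at 10.5% to 19.2%, so the term cannot tell sex from that share. The same 12485 genes gave 0 passes between LKO tumour and LKO nontumour liver (0.0%, with 278 at an unadjusted p under 0.05). Same-numbered LKO tumour and nontumour libraries matched in sex, but the labels do not say whether they share a mouse. The fit did not pair them, so 0 passes does not show that the 2 tissues were alike. Between LKO nontumour liver and DEN WT, 3 genes passed (0.024%), and 1596 had an unadjusted p under 0.05. They were A1bg, Sult2a1 and Sult2a2. These comparisons share libraries with the main one.

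**Figure D2:**
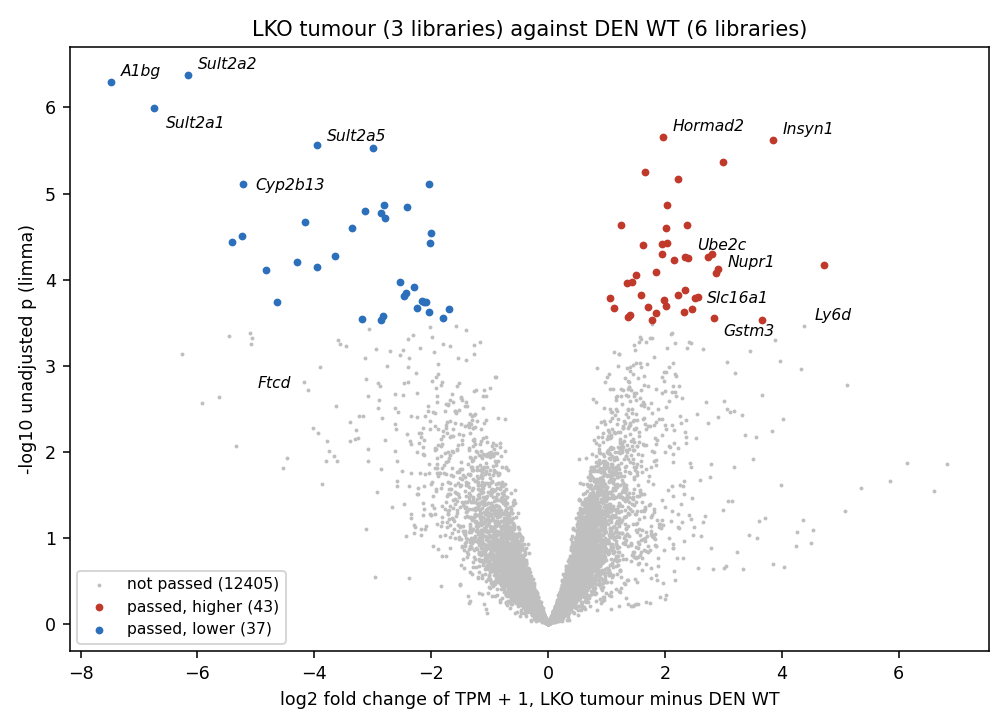
Log2 fold change of TPM + 1 between the 3 LKO tumour and 6 DEN WT libraries (x axis) against -log10 of the unadjusted limma p (y axis) for 12485 genes, with the 43 higher genes in red and the 37 lower in blue. The longest falls, led by A1bg at -7.47, are genes of female-biased liver metabolism, and Insyn1 leads the named genes that rose at 3.85; Ftcd and Ly6d are marked although they did not pass.

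Genes known for higher expression in female than in male liver fell the most. Of 38 such genes tested, 12 were lower and 0 higher, and their median log2 fold change was -2.99 against 0.02 for all genes. Among all genes tested 0.296% were lower and 0.344% higher. The tumours lay below every DEN WT library for 17 of them and above for 0, against 1.19% and 2.02% of all genes tested. These falls cannot be told apart from sex over the group as a whole, since 2 of the 3 tumours were XY.

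A1bg, which encodes a plasma glycoprotein with female-biased liver expression in mice, had the largest fall. It was at 2.89, 0.11 and 0.76 TPM in tumours 1, 2 and 3 and at 81.1 to 853 (median 471) TPM in DEN WT. For A1bg, limma gave a log2 fold change of -7.47 ± 0.98 (adjusted p = 0.00315). In the LKO nontumour libraries it was at 24.6, 0.24 and 0.44 TPM, the XX library being the highest of the 3. Fold changes here and below are limma estimates on log2(TPM + 1) with their standard error, a scale that understates changes of genes near 0.

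The sulfotransferases of the Sult2a family, which add sulfate to steroids and bile acids, fell together. Sult2a1 was at 9.3, 0.05 and 0.19 TPM in the tumours and 58.02 to 570.4 (median 336) TPM in DEN WT. Sult2a1 differed by -6.75 ± 0.93 on the log2 scale (limma adjusted p = 0.00427). For Sult2a2 the levels were 5.02, 0 and 0.21 TPM and 50.1 to 364 (median 146) TPM. Sult2a2 had a log2 fold change of -6.16 ± 0.80 (limma adjusted p = 0.00315). Tumour 1 was the highest tumour for both and still lay below all of DEN WT. Sult2a4 (log2 fold change -5.41 ± 0.99, limma adjusted p = 0.0167) and Sult2a5 (log2 fold change -3.96 ± 0.59, limma adjusted p = 0.00533) also fell without overlap. Sult2a3 was listed at 0 in all 3 tumours and at 1.74 to 73.8 (median 9.72) TPM in DEN WT, and did not pass (adjusted p = 0.0645). The 4 that passed lie within 1 stretch of chromosome 7 (mm10, 13623967 to 13989607). They are close paralogs, and how reads were divided among them is not known.

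Female-biased cytochrome P450 genes, whose products oxidize steroids, fatty acids and drugs, made up the next largest falls. Cyp3a44 was at 2.38, 0.07 and 0.18 TPM in the tumours and 10.5 to 169 (median 67.9) TPM in DEN WT. For Cyp3a44, limma gave a log2 fold change of -5.24 ± 0.95 (adjusted p = 0.0155). Cyp2b13 stood at 7.13, 0.08 and 0.46 TPM against 18.4 to 209 (median 132) TPM. Cyp2b13 differed by -5.21 ± 0.84 on the log2 scale (limma adjusted p = 0.00816). Its neighbour Cyp2b9 (both on mm10 chromosome 7, 26061497 to 26210661) was at 8.5, 6.33 and 2.8 TPM against 25.5 to 299 (median 152) TPM. Cyp2b9 had a log2 fold change of -4.15 ± 0.73 (limma adjusted p = 0.0138). In these 3 genes every tumour was below every DEN WT library. Cyp2c69 fell from 34.2 to 420.1 (median 234) TPM to 27.7, 0.06 and 14.3 TPM. For Cyp2c69, limma gave a log2 fold change of -4.64 ± 0.99 (adjusted p = 0.0371). Tumour 2 was near 0 there while tumour 1 came close to the lowest DEN WT library. Cyp4a14, a fatty acid hydroxylase that is also a target of the lipid sensor PPARa, was at 13.3, 0.09 and 6.28 TPM against 27.4 to 364 (median 171) TPM. Cyp4a14 differed by -4.82 ± 0.95 on the log2 scale (limma adjusted p = 0.0227).

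Hao2, a peroxisomal hydroxyacid oxidase, was at 2.47, 0 and 0.19 TPM in the tumours and 4.42 to 20.4 (median 11.1) TPM in DEN WT. Hao2 had a log2 fold change of -2.86 ± 0.49 (limma adjusted p = 0.0124). Its levels did not overlap between the groups. Other female-biased genes behaved unevenly among the tumours. Cyp3a41a was at 536, 0.34 and 77.3 TPM, with tumour 1 inside the DEN WT range of 259 to 2023 (median 943) TPM, and did not pass (adjusted p = 0.255). Cyp3a16 lay lower in all 3 tumours, at 5.98, 0.03 and 2.25 TPM against 7.68 to 96.96 (median 45.01) TPM, and just missed the threshold (adjusted p = 0.0632). Of the 38, 4 passed without tumour 2, 4 without tumour 3, 20 without tumour 1, 18 without DEN WT 1 and 0 with the term for sex. The fit of the 9 libraries alone kept 5, and 22 passed without the low-Ftcd DEN WT libraries.

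**Figure D3:**
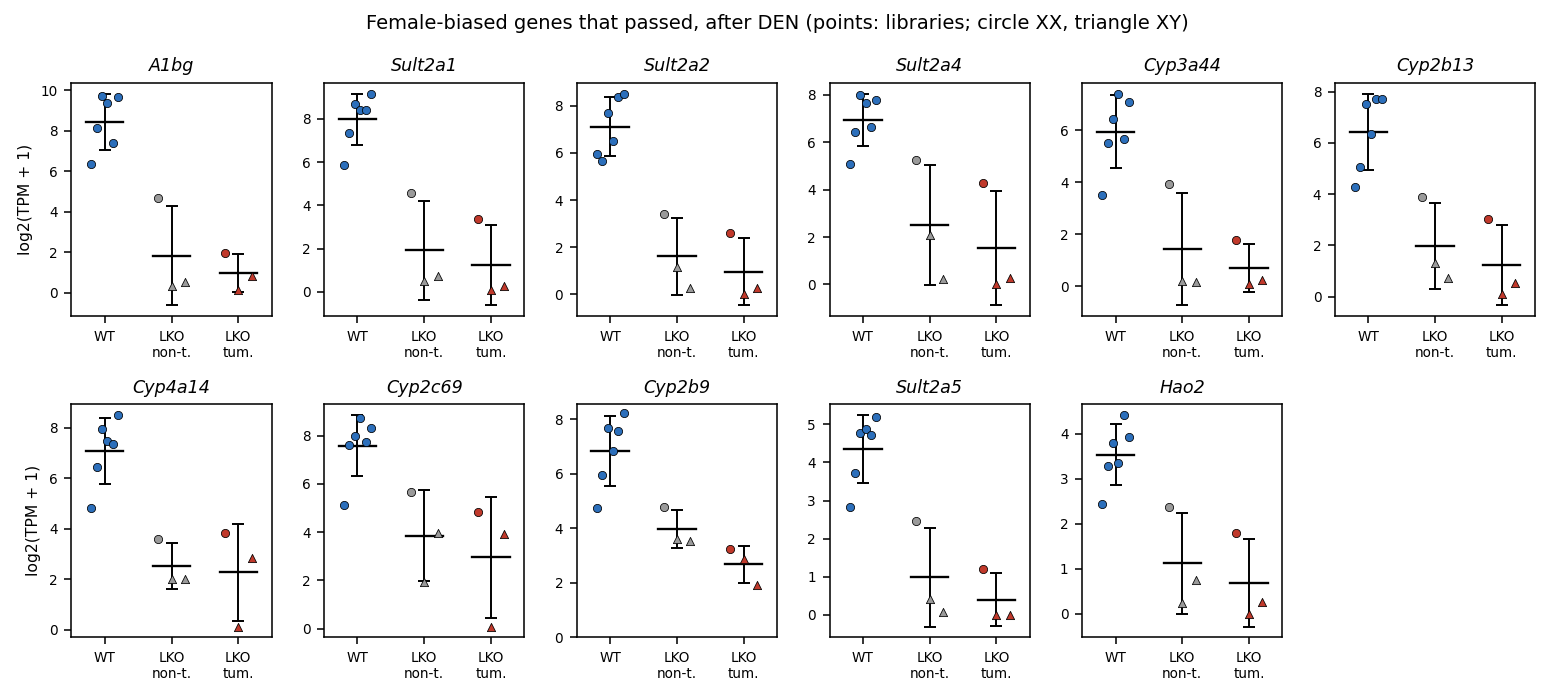
Log2(TPM + 1) (y axis) of 11 female-biased genes that passed, in 6 DEN WT libraries (blue), 3 LKO nontumour libraries (grey) and 3 LKO tumour libraries (red); each point is a library (circle XX, triangle XY), and the bar and whiskers are the mean and SD. The tumours lie below DEN WT in every panel, which the choice of genes that passed on these values largely fixes, and the XX tumour is the highest tumour in each.

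The transcription factor STAT5 mediates much of the sex-specific action of growth hormone in liver, so its core motif TTCNNNGAA was sought on both strands in the 250 bases before the start of the genes that passed (RefSeq, GRCm38.p6). Promoters were in the table for 8 of the 12 female-biased genes, and only that of A1bg held it, while 7.02% of all 32851 promoters of this length did. The A1bg window, chr15:60921271-60921520 on the minus strand, is shown 5′ to 3′ with the match in capitals, at -84 from the start.
A1bg: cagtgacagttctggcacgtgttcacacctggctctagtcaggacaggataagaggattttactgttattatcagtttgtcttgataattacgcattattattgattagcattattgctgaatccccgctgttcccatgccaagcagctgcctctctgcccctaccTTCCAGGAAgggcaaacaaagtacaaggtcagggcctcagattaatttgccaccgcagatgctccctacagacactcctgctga
A match is a description of these letters and no evidence of binding.

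Genes known for higher expression in male than in female liver were mixed. Of 30 tested, 0 passed in limma (15 had an unadjusted p under 0.05), with a median of 0.07. Mup20, a major urinary protein that serves as a male pheromone, was at 140.2, 15462 and 6862 TPM in the tumours and 10.8 to 295 (median 79.7) TPM in DEN WT. Both XY tumours were far above the range of DEN WT and the XX tumour was inside it. For Mup20, limma gave a log2 fold change of 5.12 ± 1.39 (adjusted p = 0.114). Mup17 ran the other way, at 651, 9.06 and 1.01 TPM against 137 to 2125 (median 835) TPM, again with the XX tumour within the DEN WT range (adjusted p = 0.286). Mup genes are near-identical copies, so the split of reads among them is uncertain.

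Among the lower genes were also 4 enzymes of amino acid breakdown, Hal, Sds, Hpd and Prodh2, taken from different lists and set together after their values were seen. Hal, histidine ammonia-lyase, starts histidine breakdown and acts upstream of Ftcd. It was at 6.84, 38.1 and 17.9 TPM in tumours 1, 2 and 3 and at 57.3 to 187 (median 138) TPM in DEN WT. Hal differed by -2.80 ± 0.49 on the log2 scale (limma adjusted p = 0.0135). Tumour 1 was lowest and no tumour reached the DEN WT range. LKO nontumour liver stood at 54.7, 70.9 and 54.95 TPM, above every tumour, with 2 of its 3 libraries below the lowest of DEN WT. Of the 6 histidine breakdown enzymes tested, Hal was the only one that passed, and their median was -1.80. Uroc1 and Amdhd1, the next enzymes of the pathway, had log2 fold changes of -1.89 and -1.72 and did not pass (adjusted p = 0.18 and 0.139). Hnmt, which methylates histamine, was at 1.77, 31.4 and 22.3 TPM against 1.82 to 18.2 (median 6.56) TPM (adjusted p = 0.753).

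Sds, serine dehydratase, which turns serine into pyruvate in periportal hepatocytes, was at 26.4, 95.8 and 43.7 TPM in the tumours and 188 to 574 (median 341) TPM in DEN WT. Sds had a log2 fold change of -2.81 ± 0.48 (limma adjusted p = 0.0118). Hpd, an enzyme of tyrosine breakdown, was at 1097, 195 and 593 TPM against 1573 to 2784 (median 2567) TPM. For Hpd, limma gave a log2 fold change of -2.24 ± 0.49 (adjusted p = 0.0407). Prodh2, which oxidizes hydroxyproline, was at 32.97, 38.3 and 31.8 TPM against 82.1 to 195 (median 149.96) TPM. Prodh2 differed by -2.0 ± 0.36 on the log2 scale (limma adjusted p = 0.0151). All 3 fell without overlap, and the 3 tumours were closest to one another for Prodh2, with LKO nontumour liver at 54.9, 44.9 and 55.6 TPM, below every DEN WT library as well. Prodh2 was chosen for description after its values were seen, as were the genes below that fall outside the named lists. Of the 20 periportal and urea cycle genes, 2 were lower (Sds and Hal) and 0 higher, with a median of -1.44 and 19 of 20 below 0. Among all genes tested 0.296% were lower and 0.344% higher, the median was 0.02, and 6059 of 12485 estimates were below 0. Ass1, which makes argininosuccinate, was at 214, 254 and 588 TPM against 355 to 2946 (median 2142) TPM and did not pass (adjusted p = 0.0877). Cyp2f2, a periportal cytochrome, was at 9.49, 62.1 and 29.9 TPM against 23.9 to 579.7 (median 264) TPM (adjusted p = 0.146).

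Nnmt, which uses methyl groups from S-adenosylmethionine to methylate nicotinamide, fell as well. Its levels were 38.9, 2.32 and 26.3 TPM in the tumours and 89.7 to 468 (median 187) TPM in DEN WT. Nnmt had a log2 fold change of -3.65 ± 0.69 (limma adjusted p = 0.0193). Gnmt, the main glycine methyltransferase of liver, was at 51.8, 69.4 and 138 TPM against 165 to 2195 (median 949) TPM without overlap, yet did not pass (log2 fold change -3.08, adjusted p = 0.125). LKO nontumour liver had Gnmt at 72.3, 54.9 and 245 TPM, so the library of that group with the most lay within the DEN WT range. Of the 16 genes of the methionine and methyl group cycle, 1 was lower (Nnmt) and 0 higher, with a median of -0.77. Among all genes tested 0.296% were lower and 0.344% higher, with a median of 0.02. Of the 30 folate and one-carbon enzymes, to which Ftcd belongs, 0 passed in limma (11 had an unadjusted p under 0.05) and their median was -0.40. In 3 of these (Ftcd, Gnmt and Sardh) every tumour was below every DEN WT library. Mthfd2l, a mitochondrial folate enzyme, was the only one with every tumour above, at 2.78, 3.56 and 8.83 TPM against 0.69 to 2.65 (median 1.7) TPM (adjusted p = 0.24). Both comparisons by overlap were made after the values were seen. Over all genes tested, 1.19% lay below in this way and 2.02% above.

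Several other liver enzymes and secreted proteins passed on the lower side. Upp2, a uridine phosphorylase of liver, was at 39.2, 16.8 and 22.01 TPM in the tumours, 78.8, 49.6 and 60.9 TPM in LKO nontumour liver and 67.4 to 497 (median 299.98) TPM in DEN WT. For Upp2, limma gave a log2 fold change of -3.13 ± 0.54 (adjusted p = 0.0124). Wfdc21, a small secreted protein, was at 108, 74.8 and 78.3 TPM against 222 to 2275 (median 914) TPM. Wfdc21 differed by -3.19 ± 0.71 on the log2 scale (limma adjusted p = 0.0463). Fcna, the complement lectin ficolin A made by liver macrophages, was at 5.9, 2.87 and 7.16 TPM against 10.8 to 64.6 (median 31.6) TPM. Fcna had a log2 fold change of -2.43 ± 0.51 (limma adjusted p = 0.0355). Each was lower in all 3 tumours than in any DEN WT library. The carboxylesterases Ces1e, Ces2a and Ces3b, which cleave esters of drugs and lipids, had log2 fold changes of -2.82, -2.02 and -2.46. Ces2a and Ces3b lie in 1 cluster on chromosome 8 (mm10, 104734003 to 105093929) and are paralogs that may share reads. Eci3, a peroxisomal isomerase of fatty acid oxidation, was at 0.49, 0 and 0.06 TPM against 4.3 to 14.2 (median 9.43) TPM (log2 fold change -3.0 ± 0.45, limma adjusted p = 0.00533). Cyp2c37 fell by estimate (log2 fold change -3.95 ± 0.77, limma adjusted p = 0.0225) although tumour 1 at 109.95 TPM lay inside the DEN WT range of 83.1 to 615 (median 463) TPM. Hnf4aos, an antisense transcript of the hepatocyte factor gene Hnf4a, passed as lower (log2 fold change -2.03 ± 0.44, limma adjusted p = 0.0424). Whether counting used strand is not stated, so reads of that gene cannot be told apart from it. The other 7 lower genes with regular symbols were Sult5a1, Rps4l, Macrod1, Mmd2, Nat8f1, Fn3k and Lin7a, with log2 fold changes from -3.35 to -1.69.

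Among the higher genes were 4 of cell division. Of 21 such genes tested, 4 rose and 0 fell, with a median log2 fold change of 1.06, and 20 of 21 estimates were above 0. Among all genes tested 0.344% rose and 0.296% fell, the median was 0.02, and 6426 of 12485 estimates were above 0. Ube2c, a ubiquitin-conjugating enzyme of the anaphase-promoting complex, was at 9.47, 7.75 and 37.1 TPM in tumours 1 to 3 and 0.72 to 3.74 (median 1.83) TPM in DEN WT. For Ube2c, limma gave a log2 fold change of 2.39 ± 0.46 (adjusted p = 0.0193). Cdkn3, a phosphatase of cyclin-dependent kinases, was at 2.64, 2.66 and 24.6 TPM against 0.22 to 0.98 (median 0.43) TPM. Cdkn3 differed by 2.23 ± 0.47 on the log2 scale (limma adjusted p = 0.0357). Cdc20, an activator of the same complex as Ube2c, was at 5.06, 2.82 and 22.6 TPM against 0.37 to 1.75 (median 1.27) TPM. Cdc20 had a log2 fold change of 2.02 ± 0.43 (limma adjusted p = 0.0402). In each of them tumour 3 was highest and all 3 tumours were above all of DEN WT. Birc5, survivin, a protein of dividing cells, was at 3.34, 4.23 and 11.8 TPM against 0.48 to 2.6 (median 0.81) TPM. For Birc5, limma gave a log2 fold change of 1.71 ± 0.37 (adjusted p = 0.0402). Nek2, a kinase of the centrosome, is not in the list and also rose, from 0.03 to 1.22 (median 0.52) TPM to 5.47, 1.98 and 10.9 TPM. Nek2 differed by 2.04 ± 0.38 on the log2 scale (limma adjusted p = 0.0167).

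Top2a and Ccnb2, markers of cycling cells, lay higher in every tumour without passing (adjusted p = 0.114 and 0.0637). Mki67, the usual proliferation marker, was at 0.09, 0.63 and 2.4 TPM in the tumours and 0.05 to 0.47 TPM in DEN WT and did not reach the level needed to be tested. Summed over the list, cell division genes were at 51.4, 82.2 and 461 TPM in tumours 1 to 3 and 21.9 to 130 TPM in DEN WT, so only tumour 3 exceeded DEN WT by the sum. Without tumour 3, 0 list members passed and the median was 0.15, and without tumour 1, 9 did with a median of 1.85. The count was 1 without DEN WT 2, 3, 4 or 6 and 2 without DEN WT 5, and 0 with the 9 libraries alone or with the term for sex.

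The sequence TTTGAA, the core of the cell cycle homology region through which the DREAM complex holds such genes silent in resting cells, was sought on both strands after the values were seen. It occurs before the start of Cdc20, Cdkn3 and Ube2c and not of Birc5, against 15.99% of all promoters of the same length. It was as well present in 4 of the 8 female-biased promoters, so it does not set these genes apart. The windows (RefSeq, GRCm38.p6) are Cdc20 at chr4:118437344-118437593 on the minus strand, Cdkn3 at chr14:46760291-46760540 and Ube2c at chr2:164769679-164769928, both on the plus strand. They are given because the genes rose together, with the match in capitals, at -18, -111 and -29 from the start. In Cdkn3 and Ube2c it is read on the opposite strand.
Cdc20: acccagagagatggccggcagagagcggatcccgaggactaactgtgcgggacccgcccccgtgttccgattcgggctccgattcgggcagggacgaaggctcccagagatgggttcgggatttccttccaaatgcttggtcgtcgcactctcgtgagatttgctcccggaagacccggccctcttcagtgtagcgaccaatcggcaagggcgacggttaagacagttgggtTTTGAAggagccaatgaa
Cdkn3: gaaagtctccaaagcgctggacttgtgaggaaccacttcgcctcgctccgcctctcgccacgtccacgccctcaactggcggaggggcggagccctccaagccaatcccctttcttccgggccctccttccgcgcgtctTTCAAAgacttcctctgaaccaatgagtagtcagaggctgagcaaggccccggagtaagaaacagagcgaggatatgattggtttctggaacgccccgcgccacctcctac
Ube2c: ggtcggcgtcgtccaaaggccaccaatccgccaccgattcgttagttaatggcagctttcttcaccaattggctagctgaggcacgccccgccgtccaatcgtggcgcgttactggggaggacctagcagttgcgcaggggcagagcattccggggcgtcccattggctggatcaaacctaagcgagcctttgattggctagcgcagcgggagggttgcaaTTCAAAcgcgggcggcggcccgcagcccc

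Insyn1 had the largest rise of any gene with a regular symbol. It encodes a protein known from inhibitory synapses. Its level was 4.28, 32.1 and 33.9 TPM in the tumours and 0.03 to 1.45 (median 0.12) TPM in DEN WT. Insyn1 had a log2 fold change of 3.85 ± 0.57 (limma adjusted p = 0.00533). LKO nontumour liver was at 0.08, 6.14 and 0.48 TPM, with 1 of 3 libraries above the tumour of lowest level. Nupr1, a stress-induced nuclear protein under the control of the factor ATF4, was at 14.6, 10.9 and 117 TPM against 1.14 to 4.01 (median 2.92) TPM. For Nupr1, limma gave a log2 fold change of 2.91 ± 0.57 (adjusted p = 0.0227). Tumour 3 was the highest for both, and neither gene overlapped. Of 14 ATF4 response genes tested, Nupr1 was the only one that passed, with a median of 0.68. Fgf21, a hormone of liver released under stress or fasting, was at 13.1, 6.18 and 69.8 TPM against 1.92 to 3.64 (median 2.37) TPM and missed the threshold (adjusted p = 0.0637).

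Lpl, lipoprotein lipase, releases fatty acids from circulating lipoproteins and is low in adult liver. It was at 8.98, 53.7 and 43.3 TPM in the tumours, 4.9, 23.2 and 20.6 TPM in LKO nontumour liver and 2.0 to 5.51 (median 3.32) TPM in DEN WT. Lpl differed by 2.73 ± 0.52 on the log2 scale (limma adjusted p = 0.0193). The XY libraries were the highest in both LKO groups. Lpl was 1 of 17 PPARg and lipid droplet genes to pass, and 0 fell, with a median of 0.41. Cidec, a lipid droplet protein, was at 17.7, 10.3 and 144 TPM against 4.25 to 8.19 (median 6.36) TPM without overlap and did not pass (adjusted p = 0.272). Pparg itself was at 4.9, 3.26 and 27.99 TPM against 2.99 to 8.21 (median 6.24) TPM, and Srebf2, the regulator of cholesterol synthesis, at 9.58, 13.1 and 57.03 TPM against 9.19 to 23.96 (median 20.96) TPM. Tumour 3 alone exceeded DEN WT for both of them (adjusted p = 0.864 and 0.946).

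Slc16a1, the lactate transporter MCT1, was at 65.6, 66.1 and 83.5 TPM in the tumours and 5.41 to 26.6 (median 12.2) TPM in DEN WT. Slc16a1 had a log2 fold change of 2.52 ± 0.53 (limma adjusted p = 0.0357). The tumours were close to one another and well above the highest DEN WT library, and LKO nontumour liver was at 34.5, 67.4 and 42.5 TPM. It was the only one of 23 glycolysis and lactate genes to pass, and their median was -0.01. Gstm3, a glutathione transferase of the antioxidant response, was at 165, 399 and 1067 TPM against 26.7 to 87.2 (median 68.1) TPM. For Gstm3, limma gave a log2 fold change of 2.83 ± 0.63 (adjusted p = 0.046). Of 33 NRF2 targets and glutathione transferases it alone passed, with a median of 0.57 and 27 estimates above 0. Gsta1 was at 9.9, 694 and 449 TPM, with both XY tumours far above the DEN WT range of 1.56 to 48.8 (median 4.4) TPM and tumour 1 within it (adjusted p = 0.091). Glutathione transferases are paralogs, and reads may be divided among them.

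Fkbp11, a folding enzyme of the secretory pathway, was at 35.7, 147 and 149 TPM in the tumours and 9.1 to 20.4 (median 11.9) TPM in DEN WT. Fkbp11 differed by 2.80 ± 0.53 on the log2 scale (limma adjusted p = 0.0193). Pdgfa, a growth factor for fibroblasts and stellate cells, was at 6.86, 12.8 and 17.1 TPM against 1.43 to 3.58 (median 1.98) TPM. Pdgfa had a log2 fold change of 2.03 ± 0.34 (limma adjusted p = 0.0118). Net1, an exchange factor for the GTPase RhoA, was at 49.1, 61.5 and 55.7 TPM against 9.08 to 17.2 (median 15.3) TPM. For Net1, limma gave a log2 fold change of 1.96 ± 0.36 (adjusted p = 0.0167). Apaf1, which forms the apoptosome after cytochrome c release, was at 4.71, 3.71 and 4.56 TPM against 0.55 to 1.52 (median 1.12) TPM. Apaf1 differed by 1.41 ± 0.31 on the log2 scale (limma adjusted p = 0.0444). None of these 4 overlapped between the groups, and LKO nontumour liver was at 21.7, 64.01 and 36.3 TPM for Net1 and 1.47, 3.76 and 5.52 TPM for Apaf1. For Net1 these lay below the tumour range in 2 libraries and above it in 1, and for Apaf1 1 library lay in each position. Hormad2, a protein of meiotic chromosomes, was at 4.77, 5.92 and 2.09 TPM against 0.04 to 0.86 (median 0.20) TPM (log2 fold change 1.97 ± 0.29, limma adjusted p = 0.00533). Cgref1 and Lockd, a noncoding transcript next to the cell cycle inhibitor gene Cdkn1b, also rose without overlap, with log2 fold changes of 2.33 and 2.34. Airn, the noncoding antisense RNA of the Igf2r locus, passed as higher (log2 fold change 1.95 ± 0.37, limma adjusted p = 0.0193), with the same limit on strand as for Hnf4aos. The other higher genes with regular symbols, Ccdc120 and Kbtbd12, had log2 fold changes of 1.37 and 1.13.

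**Figure D4:**
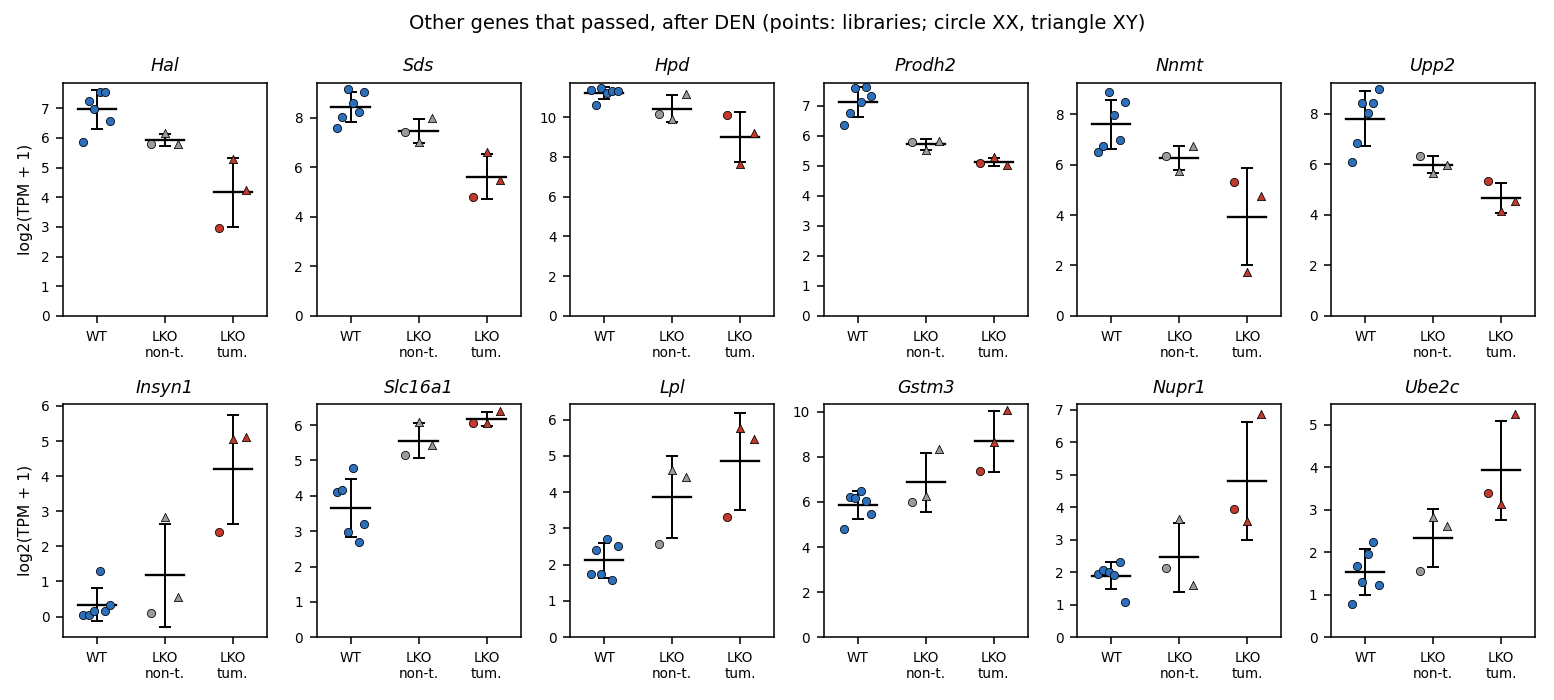
Log2(TPM + 1) (y axis) of 6 further genes that fell (top row) and 6 that rose (bottom row) in tumour, by library: 6 DEN WT (blue), 3 LKO nontumour (grey) and 3 LKO tumour (red), circles XX and triangles XY, with the mean and SD. No panel has a tumour within the DEN WT range, which the choice of genes that passed on these values largely fixes. For Slc16a1 the 3 tumours lie between 65.6 and 83.5 TPM.

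Provisional genes and loci without a gene name added to the higher side. The most abundant provisional gene, 2200002D01Rik, was at 265, 238 and 305 TPM in the tumours and 20.3 to 94.05 (median 37.4) TPM in DEN WT. 2200002D01Rik had a log2 fold change of 2.56 ± 0.54 (limma adjusted p = 0.0357). The authors' table held 2639 assembled loci, of which 603 were tested and 14 passed. The most abundant of these, MSTRG.17421, was at 2268, 3164 and 478 TPM in the tumours and 57.95 to 577 (median 101) TPM in DEN WT, with tumour 3 inside that range. For MSTRG.17421, limma gave a log2 fold change of 3.66 ± 0.82 (adjusted p = 0.0463). MSTRG.12703 was at 49.99, 82.9 and 10.2 TPM against 0 to 5.54 (median 0) TPM. MSTRG.12703 differed by 4.73 ± 0.92 on the log2 scale (limma adjusted p = 0.0214). MSTRG.26490 was listed at 0 in all 6 DEN WT libraries and at 8.24, 1.27 and 3.95 TPM in the tumours, so no fold is given. Of the 14 loci, 4 carried the same protein match in the authors' table. Of 20 tested loci with that match 19 had an estimate above 0, and they may share reads.

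Markers often raised in liver tumours gave 0 genes that passed limma among 23 tested, 4 of them at an unadjusted p under 0.05, with a median of 0.47. Afp, the fetal serum protein, was at 0.46, 22.4 and 3.7 TPM in the tumours and 0.16 to 30.4 (median 1.32) TPM in DEN WT. Gpc3, a surface proteoglycan of liver cancer, was at 0.02, 5.79 and 0.68 TPM against 0.15 to 7.44 (median 1.06) TPM. The imprinted growth genes H19 and Igf2 were at 1.16, 1.7 and 83.9 TPM and 1.53, 1.2 and 1.47 TPM against 0.68 to 85.05 (median 13.4) TPM and 0.38 to 50.1 (median 1.16) TPM. These ranges overlap for all 4 genes (adjusted p = 0.83, 0.992, 0.887 and 0.782). Ly6d was the only 1 of the 23 markers with every tumour above DEN WT, against 2.02% of all genes tested. It was at 86.3, 161 and 1377 TPM against 1.52 to 64.7 (median 12.3) TPM and did not pass (log2 fold change 4.39 ± 1.00, limma adjusted p = 0.0524). Ccnd1, cyclin D1, was at 2.4, 7.2 and 9.15 TPM against 3.15 to 35.9 (median 10.2) TPM (adjusted p = 0.781).

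Pericentral genes under beta-catenin control differed among the tumours, with 0 of 21 past the threshold in limma (8 at an unadjusted p under 0.05) and a median of -0.66. Glul, glutamine synthetase, which marks active beta-catenin signalling, was at 359.6, 6.82 and 110.2 TPM in tumours 1, 2 and 3 and 114 to 639 (median 336) TPM in DEN WT. Tumour 1 was above the median of DEN WT, tumour 3 just below its lowest library and tumour 2 far below it. Cyp2e1, a pericentral cytochrome that activates DEN, was at 563, 38.6 and 1627 TPM against 427 to 7472 (median 5607) TPM, with tumour 2 the lowest of the 9 libraries (adjusted p = 0.206). Among 28 hepatocyte identity genes, 1 fell (Hpd) and 0 rose, with a median of -0.86. Of the 31 PPARa and fatty acid oxidation genes, 1 fell (Cyp4a14) and 0 rose, with a median of -0.81. For both lists the matching shares of all genes tested were 0.296% lower and 0.344% higher, with a median of 0.02.

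Of 18 Kupffer cell and macrophage genes, 0 passed in limma and 7 had an unadjusted p under 0.05. Their median log2 fold change was 0.13, with 10 estimates above 0 and 8 below. Lower transcript levels in bulk tissue can come from fewer cells of a type or from less RNA per cell, which cannot be told apart. In 6 of the 18 genes every tumour lay below every DEN WT library, and in 0 above, against 1.19% and 2.02% of all genes tested. The 6 were Marco, Clec4f, Vsig4, Cd5l, Timd4 and Cd163, picked out after the values were seen. Marco, a scavenger receptor of resident macrophages, was at 0.16, 0.49 and 2.5 TPM against 6.32 to 20.99 (median 8.16) TPM (adjusted p = 0.0721). Clec4f, a lectin of mouse Kupffer cells, was at 41.9, 10.3 and 41.3 TPM against 42.6 to 122 (median 105) TPM (adjusted p = 0.151). By contrast Lgals3, galectin 3, was at 13.7, 37.4 and 279.98 TPM against 9.84 to 16.1 (median 11.7) TPM, with tumours 2 and 3 above DEN WT (adjusted p = 0.18). The whole list summed to 217, 385 and 1848 TPM in the tumours and 228 to 965 TPM in DEN WT, so tumour 3 was above that range.

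Of 21 liver endothelial genes, 0 passed in limma and 5 had an unadjusted p under 0.05. In 5 of them (Clec4g, Oit3, Dnase1l3, Gpr182 and Bmp2) every tumour lay below every DEN WT library, and in 0 above. Over all genes tested these shares were 1.19% and 2.02%. The median of the list was -0.26, with 6 estimates above 0 and 15 below. Clec4g, a lectin of these cells, was at 6.05, 4.26 and 2.51 TPM against 11.7 to 57.9 (median 28.7) TPM (adjusted p = 0.0688). Cdh5, the cadherin of endothelial junctions, was at 4.02, 18.9 and 19.8 TPM against 2.63 to 10.2 (median 8.61) TPM, with tumours 2 and 3 above DEN WT (adjusted p = 0.662). Flt1, a receptor of VEGF, was at 6.72, 3.67 and 8.26 TPM against 1.08 to 7.88 (median 2.28) TPM (log2 fold change 1.0, adjusted p = 0.476). The list summed to 104, 122 and 287 TPM in the tumours and 105 to 292 TPM in DEN WT. MHC class II genes were high in tumour 3 alone, summing to 136, 265 and 5884 TPM against 148 to 925 TPM. Cd74, the invariant chain of that complex, was at 52.2, 127 and 3522 TPM against 70.6 to 425 (median 147) TPM. Krt8, a keratin in the cholangiocyte list, was at 55.2, 177 and 1068 TPM against 27.1 to 182 (median 135) TPM, again with tumour 3 alone far above. Fcna, made by macrophages, was also lower in all 3 tumours. It and the 6 Kupffer cell genes named above were picked after their values were seen, as genes lower in every tumour. Their agreement is therefore fixed by the choice, while the whole Kupffer cell and macrophage list had the median of 0.13 given above. The part of cell makeup in the fall of Fcna was not tested.

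**Figure D5:**
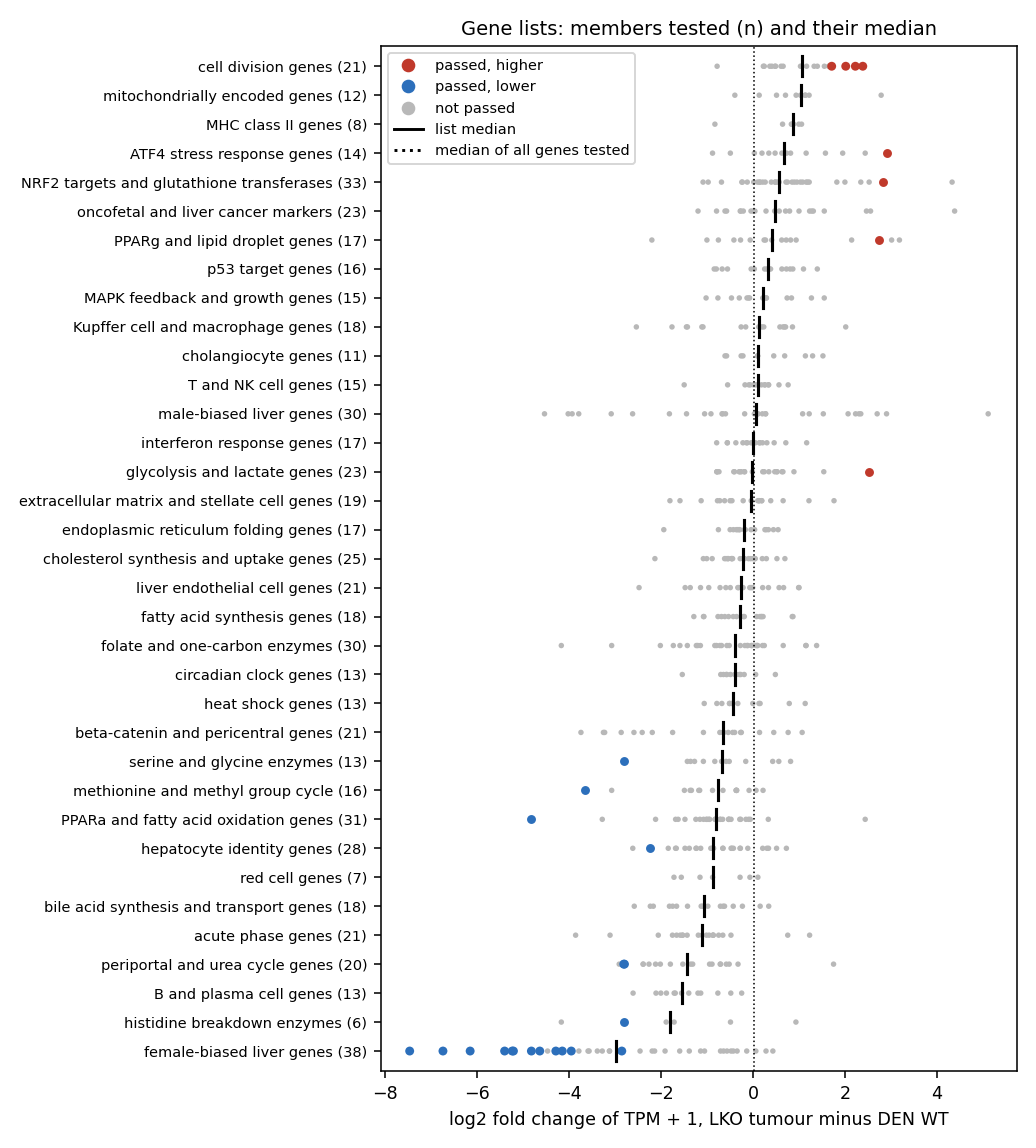
Log2 fold change of TPM + 1 between LKO tumour and DEN WT (x axis) of each tested member of the gene lists with 5 or more tested members (y axis, members tested in brackets); red and blue points passed limma, grey did not, the black bar is the list median and the dotted line the median of all genes, 0.02. Female-biased genes have the lowest median at -2.99 with 12 members passed, and cell division genes the highest at 1.06 with 4 passed.

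LKO nontumour liver was set beside both groups for the leading genes. For A1bg the estimate was -6.61 for LKO nontumour liver against DEN WT and -0.86 for tumour against LKO nontumour liver. For Cyp2b13 these were -4.46 and -0.75, and for Sult2a5 -3.37 and -0.59. For these 3 genes most of the difference lay between the nontumour groups, where again 2 of 3 LKO libraries were XY. Hal stood at -1.04 and -1.76, Sds at -0.97 and -1.85, and Nnmt at -1.32 and -2.33. Among the genes that rose, Insyn1 had 0.83 and 3.02, Nupr1 0.57 and 2.34, and Slc16a1 1.91 and 0.61. For these genes none of the steps from nontumour LKO liver to tumour passed in limma, which did not pair the libraries. The 3 comparisons share libraries, so these estimates are not independent of one another.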

How the data were processed

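Per the labels' protocols, TRIzol was used for RNA extraction and a TruSeq kit for the libraries. The authors deposited 1 table of TPM values per gene. The submitters' processing notes list fastp, HISAT and RSEM with the genome build mm10, their versions, roles and settings not given in the sources used here. TPM summed to 999999 to 1000001 per library, so abundant transcripts lower all others, and no depth, interval or detection limit could be computed. Columns of group means by the authors were not used, and 0 further columns per sample were left out.

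Genes reaching 1 TPM in 3 or more of the 9 libraries entered as log2(TPM + 1). Limma 3.58.1 in R 4.3.3 fitted the 5 group means of all 18 libraries (13 residual degrees of freedom, intensity trend), so the spread was shared with untreated and LKO nontumour groups. The contrast of LKO tumour minus DEN WT was tested 2-sided with Benjamini-Hochberg adjustment over 12485 genes. Passing meant an adjusted p below 0.05. Ftcd was also given a 2-sided exact permutation test. The fit was also run on simulated data with independent noise for each gene. Those data held no library-wide differences such as sex or mitochondrial share, so the effect of these on the fit was not tested. Figures used Python 3.11.15 and matplotlib 3.10.9.

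The comparison, gene lists and rule for named genes were chosen with earlier results of these data known. Lists were described by counts and medians, with no list test. The rule took up to 12 rises and 12 falls by size among genes that passed without overlap, with a regular symbol and a mean of at least 5 TPM in the group where they were higher. It added 13 genes whatever their result, and for described lists up to 6 members that passed and up to 4 others. The TTTGAA motif and genes said to be picked after values were seen fall outside it, and 1 gene that passed is not reported here. Gene positions are from GENCODE M21 (mm10), and 66 of the 80 genes that passed had one. RefSeq promoters of GRCm38.p6 matched 52 of the 80. Alternatives changed the pseudocount to 0.1, the filter, scaling, weights, covariates, the libraries in the fit and the replicate block.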

Additional observations from a re-analysis of the deposited data

Results flagged for a closer look

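Each result below has 1 DEN WT library farther from the other 5 than Dixon's 95% limit for 6 values allows, with genes compared as log2(TPM + 1). Of 109 results looked at, 15 were of this kind. The limit allows about 1 in 20 by chance for a single result with normally distributed values. These results share the same 6 libraries and some lie near 0 TPM, so their count cannot be compared with that rate. Mitochondrially encoded genes took 38.8% of TPM in DEN WT 1 and at most 9.82% in the other 5. DEN WT 1 was also the lowest library for Cyp2c69 at 34.2 TPM, Cyp2c37 at 83.1 TPM, Amdhd1 at 32.5 TPM, Ass1 at 355 TPM, Clec4f at 42.6 TPM and Nat8f1 at 123 TPM, and the highest for Airn at 1.47 TPM. DEN WT 2 was lowest for Hpd at 1573 TPM. DEN WT 4 was highest for Afp at 30.4 TPM, Gpc3 at 7.44 TPM and Insyn1 at 1.45 TPM. DEN WT 6 was lowest for Nupr1 at 1.14 TPM, and DEN WT 5 highest for Kbtbd12 at 0.86 TPM. MSTRG.12703 was at 5.54 TPM in DEN WT 3 and listed at 0 in the other 5.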

How the results depend on the processing

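All 80 genes kept their direction in every alternative fit. Nearly all of them had no overlap between the groups, so fits that only leave out libraries could not turn their sign. The count of genes that passed was 350 with median-ratio scaling, 252 with quantile normalization, 8 with the 9 libraries alone, 167 (128 higher, 39 lower) with the mitochondrial share as covariate, 2 with a term for XX or XY and 438 without the low-Ftcd DEN WT libraries. Leaving out 1 library gave 23 to 419. Array quality weights gave 14 (1 higher, 13 lower), but their default algorithm stopped before convergence, and the gene-by-gene algorithm, added after seeing the data, gave 2848 (1383 higher, 1465 lower). Without the 2 libraries over 30% mitochondrial TPM (tumour 1 and DEN WT 1), also added then, 474 passed (314 higher, 160 lower). Near the main count were a pseudocount of 0.1 (61, with 18 higher and 43 lower), no filter (58) and a filter over all 18 libraries (69), of which 51, 33 and 68 were among the 80. The median of all genes moved from 0.02 to -0.43 with the term for sex, to 0.34 with the mitochondrial covariate, to 0.26 with the block and, without tumour 1 and tumour 3, to 0.27 and -0.24.

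The replicate number as a block, on the 9 libraries alone, left 0 genes in limma (1398 at an unadjusted p under 0.05), 0 female-biased and 0 cell division genes. DEN WT 4, 5 and 6 have no same-numbered tumour, so in this fit they add nothing to the contrast. Few residual degrees of freedom remain, so passing 0 genes says little here. Same-numbered tumour and DEN WT libraries deviated together at 0.589, 0.019 and 0.422, and only tumour 1 correlated best with its own number, so the numbers were not taken as pairs.

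Of the female-biased genes, 5 passed with the 9 libraries alone, 7 with no filter, 22 without the low-Ftcd libraries, 0 with the term for sex, 29 with gene-by-gene weights, 22 without the 2 libraries over 30%, and 4 to 20 without 1 library. Of the cell division genes, 0 passed with the 9 libraries alone, with no filter, with the term for sex and with default weights, 2 with a pseudocount of 0.1, 7 with median-ratio scaling, the mitochondrial covariate or gene-by-gene weights, 9 without the 2 libraries over 30%, and 0 to 9 without 1 library. The Ftcd difference was -3.94 to -4.60 without 1 tumour (exact permutation p = 0.0714, the smallest possible) and -3.78 to -4.78 without 1 DEN WT library. It was -5.67 without the low-Ftcd libraries (exact permutation p = 0.0571, the smallest possible).

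Signs turned for genes that had not passed. With the term for sex the log2 fold change was 0.10 for Cyp3a41a, 1.92 for Xist, 0.16 for Igf2, -0.86 for Gpc3, -0.47 for Srebf2, -0.09 for Pparg, -0.86 for Afp, -0.99 for Hnmt, -0.93 for Cd74, -0.16 for Cdh5 and -0.57 for Krt8. Without 1 library H19 ran from -2.51 to 0.14, Gpc3 from -0.75 to 0.62, Srebf2 from -0.55 to 0.68, Pparg from -0.44 to 0.95, Afp from -0.26 to 1.74 and Cd74 from -0.81 to 2.22. Gpc3 was -0.31 with a pseudocount of 0.1, -0.04 with quantile normalization, -0.14 with default weights and -0.40 without the low-Ftcd libraries. Srebf2 was -0.18 without the low-Ftcd libraries, -0.03 with default weights and -0.44 with gene-by-gene weights. With the last, Pparg was -0.58 and Cd74 -0.26. Igf2 was 0.37 with the block and Ccnd1 0.04 with the mitochondrial covariate. The cause of these shifts was not tested.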

Other observations

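Acute phase and bile acid genes leaned to lower estimates in tumour without passing. Of 21 acute phase genes, 0 passed in limma (5 had an unadjusted p under 0.05), with a median log2 fold change of -1.11 against 0.02 for all genes and 19 of 21 below 0. Hamp, hepcidin, the hormone that limits iron uptake, was at 3763, 1458 and 3929 TPM in tumours 1 to 3. In DEN WT it was at 6355 to 16475 (median 9342) TPM, and in LKO nontumour liver at 8366, 3221 and 37025 TPM. It was the only one of the list with every tumour below DEN WT (limma adjusted p = 0.304), against 1.19% of all genes tested. Of 18 bile acid synthesis and transport genes 0 passed (5 at an unadjusted p under 0.05), with a median of -1.08. Slc10a1, which takes bile acids up from blood, was at 18.4, 18.4 and 52.3 TPM against 15.2 to 506 (median 295) TPM, with each tumour above the lowest DEN WT library (adjusted p = 0.266).

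B and plasma cell genes had a median of -1.55, and 13 of 13 estimates were below 0, while 0 passed in limma (6 at an unadjusted p under 0.05). Their sum was 80.8, 162 and 217 TPM in tumours 1 to 3 and 123 to 2492 TPM in DEN WT. Apoa4 and Fabp4 were above DEN WT in the XY tumours alone. Apoa4, a lipoprotein of intestine and fasted liver, was at 119, 3104 and 4597 TPM against 56.8 to 205 (median 151) TPM (adjusted p = 0.151). Fabp4, a fatty acid binding protein of fat cells and macrophages, was at 3.06, 47.6 and 362 TPM against 1.68 to 7.84 (median 3.94) TPM (adjusted p = 0.134). In both genes tumour 1 lay inside the DEN WT range.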
